A study of Homo sapiens with 6 samples.

Results

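The mRNA of 9 secreted inflammatory signals and of NFKBIA, the inhibitor that holds NF-kB in the cytoplasm, was compared between LN229 cells with and without PARP3. The 10 genes were taken by name from a table of 33841 genes, and were CXCL1, CXCL2, CXCL3, CXCL8, CCL2, IL6, IL1A, IL1B, LIF and NFKBIA. LN229 is an established human glioblastoma cell line, and PARP3 is a nuclear enzyme that adds ADP-ribose to proteins. WT cells (genotype PARP3+/+) and PARP3-/- cells, in which CRISPR/Cas9 had disrupted PARP3, were each sequenced as 3 libraries, in MEM with fetal serum and with no further treatment named in the labels. The series describes a disruption from exon 2 to exon 9, and the study's methods describe guides that span a shorter stretch. The PARP3-/- cells grew from single sorted cells, and the sources used here do not say which clone or clones were sequenced. Loss of PARP3 and traits of the clone or clones therefore cannot be told apart in any value given here.

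CXCL1, CXCL2, CXCL3 and CXCL8 encode chemokines that draw neutrophils through CXCR2, and CCL2 draws monocytes. IL1A and IL1B encode the IL-1 cytokines, whose receptor activates NF-kB and AP-1, and IL6 and LIF act through receptors that share the gp130 chain and signal to STAT3. In resting cells the product of NFKBIA binds NF-kB, and upon stimulation it is degraded, NF-kB enters the nucleus and NFKBIA itself is transcribed again. Many of these genes respond to NF-kB, and glioblastoma cells are known to release CXCL8, IL-6 and LIF in culture.

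The bases before the start site are shown because 6 of the genes share a letter pattern there. The genes were not chosen by it, but the pattern was picked with their sequences in view. The table of RefSeq regions used here (GRCh38.p14) matched 8 of the 10 genes, and CCL2 and LIF were not analysed here. Each line gives the 150 bases before the RefSeq start site, read 5' to 3' on the strand of the gene, and capitals mark matches to the kB motif. For CXCL1 and NFKBIA this region ends where the gene begins in the deposited table, and for the other 6 genes the RefSeq start lies within the span listed there. The motif was searched on both strands as GGNNTTTCC, a pattern picked with these sequences in view and looser than the full kB consensus.
CXCL1, chr4:73869243-73869392, plus strand: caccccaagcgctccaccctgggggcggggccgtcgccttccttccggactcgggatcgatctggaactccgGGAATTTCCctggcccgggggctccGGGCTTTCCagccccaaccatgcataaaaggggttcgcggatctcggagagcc
CXCL2, chr4:74099196-74099345, minus strand: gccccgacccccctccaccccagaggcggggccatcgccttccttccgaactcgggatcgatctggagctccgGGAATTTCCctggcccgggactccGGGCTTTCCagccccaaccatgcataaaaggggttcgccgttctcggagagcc
CXCL3, chr4:74038690-74038839, minus strand: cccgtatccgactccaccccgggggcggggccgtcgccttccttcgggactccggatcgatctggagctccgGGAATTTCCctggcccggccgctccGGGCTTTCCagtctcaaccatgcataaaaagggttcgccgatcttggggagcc
CXCL8, chr4:73740419-73740568, plus strand: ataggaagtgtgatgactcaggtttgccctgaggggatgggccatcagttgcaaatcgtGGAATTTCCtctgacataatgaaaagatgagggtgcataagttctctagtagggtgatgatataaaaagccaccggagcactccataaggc
IL6, chr7:22727050-22727199, plus strand: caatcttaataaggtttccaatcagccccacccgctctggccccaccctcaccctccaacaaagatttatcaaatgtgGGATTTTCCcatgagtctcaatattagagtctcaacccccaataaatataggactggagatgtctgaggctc
NFKBIA, chr14:35404750-35404899, minus strand: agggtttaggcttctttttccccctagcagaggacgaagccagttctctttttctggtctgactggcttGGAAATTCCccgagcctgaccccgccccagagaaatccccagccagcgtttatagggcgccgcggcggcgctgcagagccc
IL1A, chr2:112784494-112784643, minus strand: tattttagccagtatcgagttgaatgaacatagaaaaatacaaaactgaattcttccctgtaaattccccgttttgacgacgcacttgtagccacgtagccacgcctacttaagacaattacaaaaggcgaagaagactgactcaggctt
IL1B, chr2:112836780-112836929, minus strand: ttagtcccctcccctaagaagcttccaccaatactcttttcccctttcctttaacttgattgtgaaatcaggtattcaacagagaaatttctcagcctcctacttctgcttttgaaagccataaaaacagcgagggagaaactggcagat

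A kB match was present in 6 of these 8 regions and in 941 of 27305 regions of the same length in RefSeq (3.45%). The pattern was picked with these sequences in view, so this contrast is not a test of the set. CXCL1, CXCL2 and CXCL3 are also alike in sequence, as given below, so their matches are not separate observations. In each of the 6 a match began between 91 and 72 bases before the start site, and that of NFKBIA was on the reverse strand. CXCL1, CXCL2, CXCL3 and CXCL8 held the same letters there (GGAATTTCC). CXCL1, CXCL2 and CXCL3 held a further match, GGGCTTTCC, from 53 to 45 bases before the start, and their last 60 bases were alike, with 57 identical bases between CXCL1 and CXCL2, 52 between CXCL1 and CXCL3 and 51 between CXCL2 and CXCL3. CXCL1 and CXCL8 shared 24 of these 60 bases. IL1A and IL1B held no kB match in this window. The AP-1 motif TGANTCA was found in CXCL8 and IL1A and in 4.14% of all regions, and TATAAA in CXCL8 and, on the reverse strand, in NFKBIA, against 7.05%. The C/EBP motif TTGCNNAA was found in 0 of the 8 regions and in 5.08% of all. Near matches were not counted, and CXCL8 holds TTGCAAAT, which differs from this pattern in its last letter. These are matches of letters and not sites at which binding was measured.

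**Figure D1:**
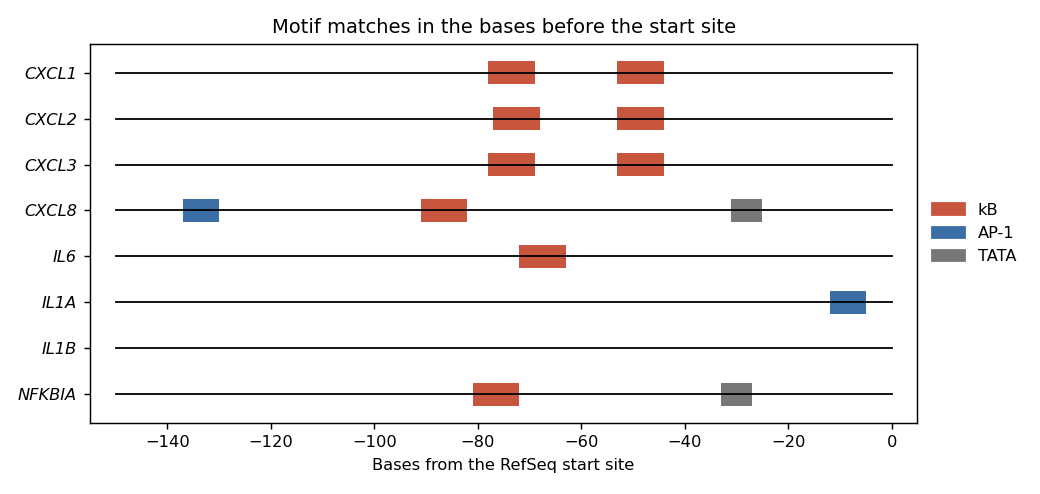
Matches to the kB, AP-1 and TATA motifs, on either strand, in the 150 bases before the RefSeq start site of 8 genes, with distance from the start site in bases on the x axis. The kB matches of 6 genes lie between 91 and 64 bases before the start, with a further match from 53 to 45 in CXCL1, CXCL2 and CXCL3, and IL1B has no match to any of the 3 motifs.

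The libraries held 29692065 to 46010369 counts on genes. At this depth, 3 counts, taken as the smallest number told from no reads, correspond to 0.0673 to 0.0996 CPM (counts scaled to the TMM-adjusted library size). Such limits speak of counting error alone. The targeted gene PARP3 (ENSG00000041880) gave 1273, 942 and 995 counts in WT and 574, 1004 and 736 in PARP3-/-, or 27.2 ± 6.71 CPM against 20.4 ± 1.90 (SD, n = 3), and the groups overlapped. Its log2 fold change, PARP3-/- over WT, was -0.42 (SE 0.18) with an adjusted p of 0.307 in edgeR and of 0.0469 when the replicate number was added as a block. RNA outside the deleted stretch is still counted, so the label is not checked strongly by this gene. Of 15 markers of glioblastoma and astroglial cells, 3 (ALDH1L1, SOX9 and CHI3L1) stayed at or under 3 counts in all 6 libraries, and GFAP had 1 to 17 counts. The summed markers ranged from 5430 to 5859 CPM in WT and from 5125 to 6096 in PARP3-/-, mostly VIM. Microglia and macrophage markers summed to 0.658 to 0.810 CPM in WT and 0.873 to 1.10 in PARP3-/-, with 9 of 14 in the table and 3 of those at or under 3 counts throughout.

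Of the 10 genes, 9 had enough counts to be tested, 2 were lower in PARP3-/- cells (IL1B and CXCL8) and 0 were higher in edgeR's quasi-likelihood test at an adjusted p under 0.05. Over all 17144 genes tested, 3.33% were called lower and 1.36% higher (4.70% in either direction). At an unadjusted p under 0.05, 3 of the 9 were lower and 0 higher, against 9.03% and 7.23% of all genes, and DESeq2 called 3 lower (3.84% of its genes) and 0 higher (2.09%). The median log2 fold change was -0.26 over the 9 genes and -0.01 over all genes tested. In 3 of the 9, IL1B, CXCL8 and CXCL1, the highest PARP3-/- library was below the lowest WT library, as in 12.0% of all genes tested, and 0 had the reverse order (10.8%). The 10 genes were chosen with earlier results of these data known, so none of these shares or medians tests the set against all genes. The series calls the libraries biological replicates and the study speaks of independent experiments, without describing the culture behind each library, so the p-values measure the spread between these libraries. In bulk RNA, fewer cells that express a gene and less RNA per cell cannot be told apart.

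**Figure D2:**
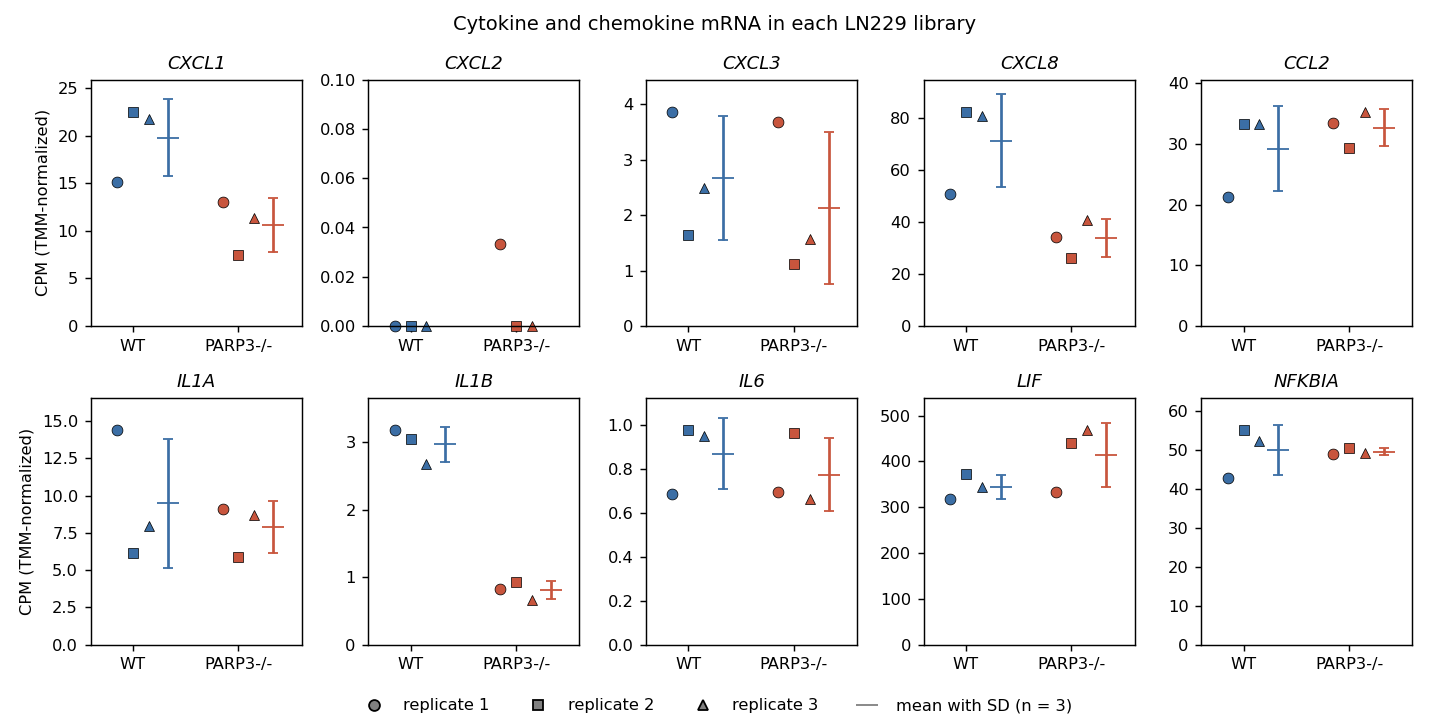
CPM (TMM-normalized, y axis from 0) of the 10 genes in 3 WT and 3 PARP3-/- libraries, with the replicate number as the symbol and the mean with SD (n = 3) beside the points, left out for CXCL2. IL1B, CXCL8 and CXCL1 have no overlap between genotypes, and CXCL2 has 1 count in a single library.

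IL1B showed the largest difference of the 9 genes. IL1B (ENSG00000125538, chr2:112829751-112836903 of hg38) encodes the IL-1β precursor, which needs cleavage before it is active. It gave 116, 128 and 110 counts in the WT libraries and 25, 41 and 25 in the PARP3-/- libraries, which is 3.18, 3.05 and 2.68 CPM against 0.830, 0.920 and 0.662 CPM. Every WT library was thus more than 2.5 CPM and every PARP3-/- library less than 1. The mean fell from 2.97 ± 0.257 to 0.804 ± 0.131 CPM (SD, n = 3), a 3.69-fold drop, with a log2 fold change of -1.88 (SE 0.19, 95% interval -2.32 to -1.43) and an edgeR adjusted p of 0.00241. The log2 difference between libraries of the same number was -1.94, -1.73 and -2.02. IL1B was called in 6 of 6 fits that left out a library, with adjusted p-values from 0.00574 to 0.0162 in edgeR.

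IL1A (ENSG00000115008, chr2:112773915-112784590), the neighbouring gene, encodes a precursor that is active without cleavage. Its CPM were 14.4, 6.12 and 7.95 in WT and 9.13, 5.90 and 8.68 in PARP3-/-. WT replicate 1 stood above the other 5 libraries, which lay between 5.90 and 9.13, and the groups overlapped. The means were 9.48 ± 4.34 and 7.90 ± 1.75 CPM (SD, n = 3), the log2 fold change was -0.26 (SE 0.33, 95% interval -1.05 to 0.52) and the adjusted p in edgeR 0.809. Without WT replicate 1 the log2 fold change was 0.16, which is the opposite direction. Within each library, the log2 ratio of IL1B to IL1A counts averaged -1.58 ± 0.586 in WT and -3.28 ± 0.538 in PARP3-/- (SD, n = 3). The difference of -1.70 had a p of 0.1 in a two-sided exact permutation test (0.2 after adjustment over 4 ratios), the smallest that 3 libraries against 3 can give. Between libraries of the same number the ratio differed by -1.28, -1.68 and -2.15.

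CXCL8, a chemokine for neutrophils, fell in PARP3-/- cells. CXCL8 (ENSG00000169429, chr4:73740506-73743716) encodes IL-8. It gave 1844, 3450 and 3305 counts in WT and 1034, 1160 and 1540 in PARP3-/-, or 50.5, 82.2 and 80.6 CPM against 34.3, 26.0 and 40.8 CPM. The lowest WT library, replicate 1, stayed above the highest PARP3-/- library. The mean fell from 71.1 ± 17.9 to 33.7 ± 7.38 CPM (SD, n = 3), a 2.11-fold drop, and the log2 fold change was -1.08 (SE 0.23, 95% interval -1.63 to -0.53). The adjusted p in edgeR was 0.0499, just under the threshold. It was 0.000431 with the replicate block and 0.000561 in DESeq2, but 0.0514 with median-of-ratios size factors and 0.0631 when genes with a mean count under 50 were left out. CXCL8 missed the threshold in 5 of 6 fits that left out a library, with edgeR adjusted p-values of 0.143 without WT replicate 2, 0.197 without WT replicate 3, 0.105 without PARP3-/- replicate 1, 0.173 without PARP3-/- replicate 2 and 0.0917 without PARP3-/- replicate 3. Without WT replicate 1 it was 0.0124.

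CXCL1 (ENSG00000163739, chr4:73869393-73871242), which shares the receptor CXCR2 with CXCL8, had the same order of libraries within WT. It gave 552, 944 and 890 counts in WT and 391, 332 and 429 in PARP3-/-, or 15.1, 22.5 and 21.7 CPM against 12.98, 7.45 and 11.4 CPM. The groups did not overlap, although WT replicate 1 and PARP3-/- replicate 1 were close, with a log2 difference of -0.22 between them against -1.59 and -0.93 for the replicates numbered 2 and 3. The means were 19.8 ± 4.05 and 10.6 ± 2.84 CPM (SD, n = 3), the latter 1.87-fold lower, with a log2 fold change of -0.91 (SE 0.24, 95% interval -1.47 to -0.34). The edgeR adjusted p of 0.0957 did not pass. With the replicate block CXCL1 was called lower (log2 fold change -0.93, adjusted p 0.00413, in a fit that called 12.5% of all genes lower and 11.8% higher), as it was in DESeq2 (0.00996), without the filter on low counts (0.0189) and without WT replicate 1 (0.0471).

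The other CXCR2 ligands were scarce. CXCL3 (ENSG00000163734, chr4:74036589-74038807) gave 3.86, 1.64 and 2.49 CPM in WT and 3.68, 1.12 and 1.56 in PARP3-/-. Replicate 1 was the highest library of either genotype, and the groups overlapped. The means were 2.66 ± 1.12 and 2.12 ± 1.37 CPM (SD, n = 3), and the log2 fold change of -0.35 (SE 0.49, 95% interval -1.52 to 0.82) had an edgeR adjusted p of 0.837. CXCL2 (ENSG00000081041, chr4:74097035-74099293) had 0 counts in all 3 WT libraries and 1, 0 and 0 in PARP3-/-, so it was not detectable at this depth and no fold is given. The mRNAs of these genes are alike, and of the stretches of 50 bases in the GENCODE 44 transcripts, 5.33% of those of CXCL1, 10.1% of those of CXCL2 and 5.26% of those of CXCL3 also occurred in another gene of this trio, against 0 for the other 7 genes. How the counting treated reads that match several genes is not given in the sources used here, so these counts are uncertain to that extent, and 958 of the 1066 stretches of CXCL2 were its own. The log2 ratio of CXCL1 to CXCL3 counts differed between genotypes by -0.49 (exact permutation test, two-sided p = 0.4, 0.5 adjusted), and by -0.15, -1.04 and -0.26 between libraries of the same number.

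CCL2 (ENSG00000108691, chr17:34255218-34257203), the chemokine of this set that acts on monocytes, gave 21.2, 33.2 and 33.2 CPM in WT and 33.4, 29.3 and 35.3 CPM in PARP3-/-. WT replicate 1 was the low library, and the other 5 lay between 29.3 and 35.3 CPM. The means were 29.2 ± 6.95 and 32.6 ± 3.05 CPM (SD, n = 3), and the log2 fold change was 0.16 (SE 0.18, 95% interval -0.27 to 0.59, edgeR adjusted p 0.786), or -0.03 without WT replicate 1. CXCL8 and CCL2 could be compared within each library. Their log2 ratio of counts was 1.25, 1.31 and 1.28 in WT and 0.04, -0.17 and 0.21 in PARP3-/-. CXCL8 thus had more counts than CCL2 in every WT library and about as many in the PARP3-/- libraries. The means of 1.28 ± 0.0271 and 0.03 ± 0.190 (SD, n = 3) differed by -1.25, with the smallest p the exact permutation test allows, 0.1 (two-sided, 0.2 adjusted). The ratio of CXCL8 to CXCL1, in contrast, was 1.83 ± 0.0823 in WT and 1.68 ± 0.244 in PARP3-/-, a difference of -0.15 (exact permutation test, p = 0.5), with -0.34, -0.06 and -0.05 between libraries of the same number. All 4 ratios were lower in PARP3-/- in every pair of the same number, and an exact test that flips the signs of 3 such differences gave 0.25 for each, the smallest p it allows. Each ratio has IL1B, CXCL8 or CXCL1 on top, the genes that were lower without overlap, and some ratios share a gene. Their common direction is therefore not separate support.

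**Figure D3:**
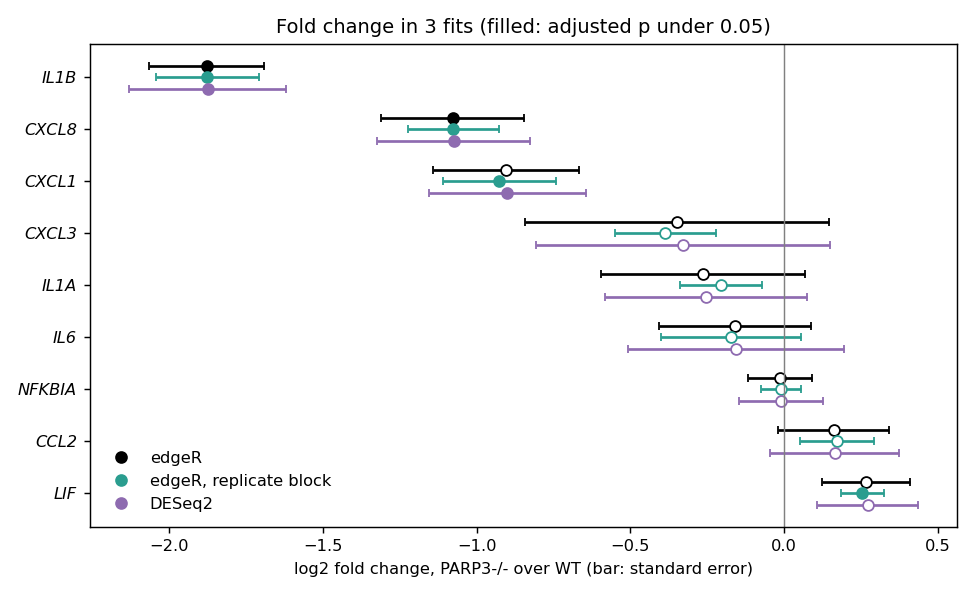
Log2 fold change, PARP3-/- over WT, with its standard error (x axis), for the 9 tested genes (y axis) in edgeR, edgeR with the replicate block and DESeq2, where a filled symbol has an adjusted p under 0.05. IL1B and CXCL8 are filled in the 3 fits, CXCL1 in 2 of them and LIF in the block alone.

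Of the cytokines that signal through gp130, IL6 gave few counts and LIF many. IL6 (ENSG00000136244, chr7:22725884-22732002) gave 25, 41 and 39 counts in WT and 21, 43 and 25 in PARP3-/-. Its CPM stayed between 0.662 and 0.977 in all 6 libraries, with means of 0.871 ± 0.162 and 0.775 ± 0.166 (SD, n = 3). The log2 fold change was -0.16 (SE 0.25, 95% interval -0.75 to 0.42) and the edgeR adjusted p 0.855. An antisense gene, AC073072.1, overlaps IL6 over 1737 bases and had at most 4 counts in any library.

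LIF (ENSG00000128342, chr22:30240447-30246851), leukaemia inhibitory factor, gave 318, 371 and 343 CPM in WT and 334, 439.6 and 468 in PARP3-/-. Replicates 2 and 3 of PARP3-/- lay above all WT libraries, and PARP3-/- replicate 1 lay among them. The means were 344.2 ± 26.8 and 413.9 ± 70.4 CPM (SD, n = 3), with a log2 fold change of 0.27 (SE 0.14, 95% interval -0.07 to 0.60) and an adjusted p of 0.438 in edgeR. With the replicate block the log2 fold change was 0.25 (SE 0.07) and LIF was called higher, with an adjusted p of 0.0219 in edgeR. The log2 differences between libraries of the same number were 0.07, 0.24 and 0.45. Of the antisense genes that overlap LIF, LIF-AS1 had 2 to 9 counts per library and AC004264.1, over 647 bases, had 92, 60 and 75 counts in WT and 41, 34 and 38 in PARP3-/-. The log2 fold change of AC004264.1 was -0.90 (SE 0.30) with an edgeR adjusted p of 0.185, and of 0.00368 with the replicate block. The library kit keeps strand, but the strand setting of the counting is not given in the sources used here, and these counts are small beside the 10068 to 19584 of LIF.

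NFKBIA (ENSG00000100906, chr14:35401511-35404749) encodes IκBα and is itself transcribed upon NF-kB activity. Its CPM were 42.8, 55.0 and 52.3 in WT and 48.9, 50.5 and 49.2 in PARP3-/-. The PARP3-/- libraries lay inside the range of the WT libraries, with means of 50.01 ± 6.39 and 49.5 ± 0.894 (SD, n = 3). The log2 fold change was -0.01 (SE 0.10), the 95% interval of -0.26 to 0.23 bounds the difference, and the edgeR adjusted p was 0.977. The sign of this value turned to 0.05 and 0.02 without WT replicate 2 and without WT replicate 3.

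Levels were compared between the genes after division by the median transcript length that the authors' table lists for each gene. In WT cells the order in CPM per kilobase was LIF (151 ± 11.7), CXCL8 (102 ± 25.5), NFKBIA (62.3 ± 7.96), CCL2 (33.7 ± 8.02), CXCL1 (23.7 ± 4.85), IL1B (4.81 ± 0.416), IL1A (4.47 ± 2.04), CXCL3 (2.87 ± 1.20) and IL6 (1.14 ± 0.212; SD, n = 3 for each). Neighbours whose means ± SD overlapped were CCL2 with CXCL1, IL1B with IL1A and IL1A with CXCL3. In PARP3-/- cells LIF (181 ± 30.9) was again the highest, and CXCL8 (48.2 ± 10.5) came after NFKBIA (61.7 ± 1.11). CCL2 (37.7 ± 3.52) overlapped with CXCL8, and CXCL1 was at 12.7 ± 3.40. IL1B, at 1.30 ± 0.213, came after IL1A (3.72 ± 0.822) and CXCL3 (2.28 ± 1.47), and its neighbours CXCL3 and IL6 (1.01 ± 0.217) overlapped with it. The order depends on the length used. With the lengths of the canonical GENCODE 44 transcripts, which are 1507 bases against 617.5 for IL1B and 1642 against 700 for CXCL8, WT CXCL8 was at 43.3 ± 10.9, CCL2 at 39.4 ± 9.38 and NFKBIA at 32.1 ± 4.10, and IL1B (1.97 ± 0.170) came after IL1A (4.70 ± 2.15) and CXCL3 (2.48 ± 1.04). In PARP3-/- cells the order then became LIF (107 ± 18.2), CCL2 (44.1 ± 4.12), NFKBIA (31.8 ± 0.573), CXCL8 (20.5 ± 4.49), CXCL1, IL1A, CXCL3, IL6 (0.687 ± 0.147) and IL1B (0.533 ± 0.0871). LIF had the highest level in both genotypes with either length.

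**Figure D4:**
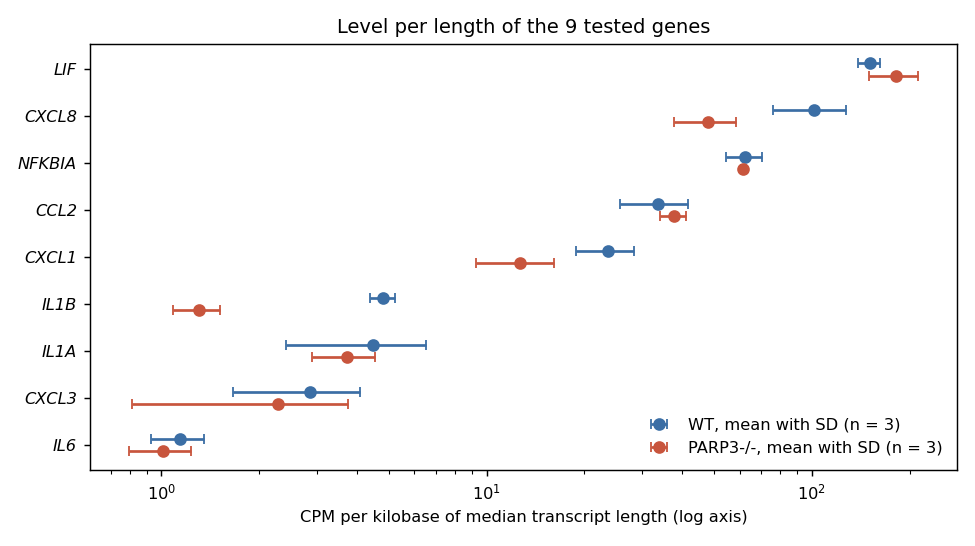
CPM per kilobase of the deposited median transcript length (log x axis) of the 9 tested genes, as the mean with SD over 3 WT and 3 PARP3-/- libraries. The levels run from 1.01 for IL6 in PARP3-/- to 181 for LIF in PARP3-/-, and IL1B, CXCL8 and CXCL1 have their PARP3-/- points clearly to the left of their WT points.

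Libraries of a genotype differed among themselves in these genes. Within WT, replicate 1 had the lowest CPM of CXCL1, CXCL8, CCL2, IL6, LIF and NFKBIA and the highest of CXCL3, IL1A and IL1B. Within PARP3-/-, replicate 1 had the highest CPM of CXCL1, CXCL3 and IL1A and the lowest of LIF and NFKBIA. The mean of the standardized log2 CPM of the 9 genes was -0.17, 0.48 and 0.49 in WT and -0.18, -0.44 and -0.17 in PARP3-/-, so WT replicate 1 lay with the PARP3-/- libraries on this average. The average pools genes in which WT replicate 1 was the lowest WT library with genes in which it was the highest. For IL1B, CXCL8 and CXCL1, WT replicate 1 lay above every PARP3-/- library. CXCL8 (r = 0.96) and CXCL1 (0.94) followed the average most closely over the 6 libraries, while IL1A (-0.21) and LIF (-0.35) ran against it. Each of the 9 genes is part of the average it is set against. Among 13762 other tested genes with a mean of at least 1 CPM, those most like this average were SCML1, TMEM167A, GPHN, C3orf70, MARC2, TMEM38A, ZNF654, KIAA1143, WDR70 and YAP1, with r from 0.979 to 0.992. These correlations describe 6 points, in which the 3 libraries of a genotype share that genotype and each library lends its depth to all genes, and the adjusted p-values of the 10 genes in edgeR were 0.252 to 0.683. The replicate block called TMEM167A (0.0427) and C3orf70 (0.0247) lower.

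Genes of the same pathways were followed in 8 lists, chosen with earlier results of these data known. Of 219 genes, 202 were in the table and 168 were tested, and 6 of these fell and 4 rose in PARP3-/- cells, beside 3.33% lower and 1.36% higher over all genes. Their median log2 fold change was -0.0042. The replicate block called 31 lower and 34 higher (12.5% and 11.8% of all genes), and DESeq2 called 8 and 8 (3.84% and 2.09% of its genes). Of the 10 calls, TNFAIP2 and CEBPA held in all 6 fits that left out a library, PDGFB in 4, SOCS2, TGFB2 and CXCL16 in 3, SAA1, STAT5A and CASP1 in 2 and TGFB1 in 1. The calls that were lost had these edgeR adjusted p-values. PDGFB had 0.0927 without WT replicate 3 and 0.0593 without PARP3-/- replicate 3. Without WT replicate 3, PARP3-/- replicate 2 or PARP3-/- replicate 3, SOCS2 had 0.0781 to 0.0815, TGFB2 0.118 to 0.134 and CXCL16 0.0972 to 0.149. SAA1 had 0.0523 to 0.121 without WT replicate 2 or any PARP3-/- library, CASP1 0.0523 to 0.0985 without WT replicate 3 or any PARP3-/- library, and STAT5A 0.0806 to 0.171 without replicates 2 or 3 of either genotype. TGFB1 had 0.0543 to 0.155 and kept its call without PARP3-/- replicate 1 alone.

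**Figure D5:**
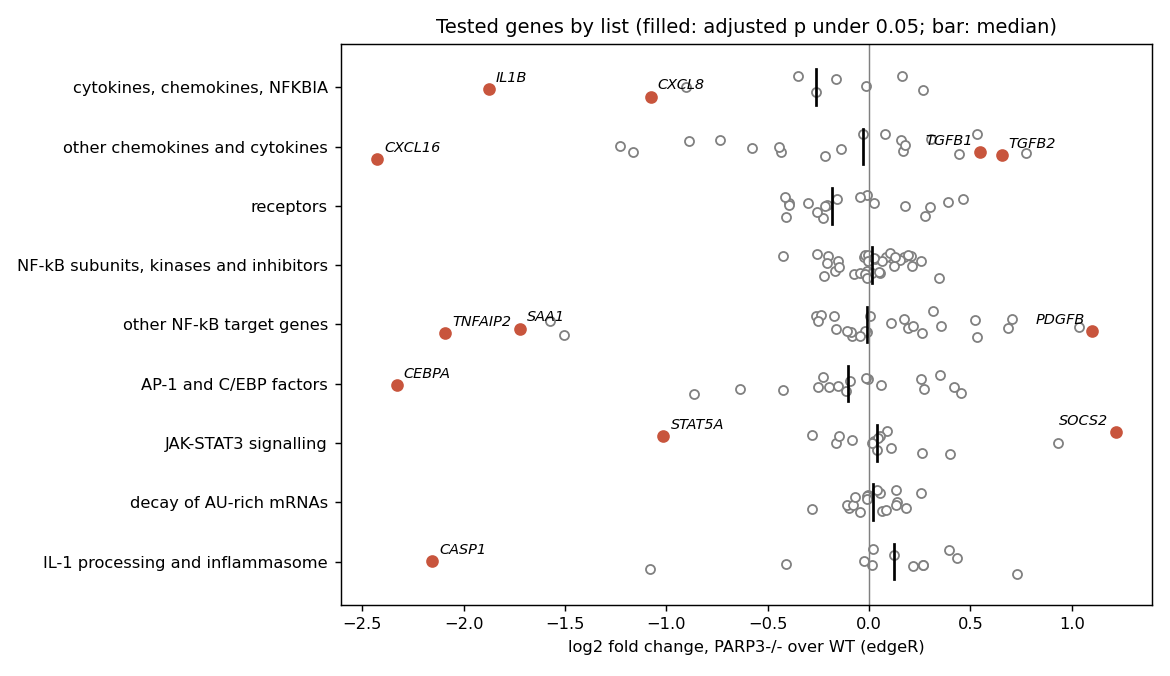
Log2 fold change, PARP3-/- over WT (x axis), of the tested genes of the set and of 8 pathway lists (y axis), where a filled and named point has an edgeR adjusted p under 0.05 and the bar is the median of the list. The medians of the 8 lists lie between -0.18 and 0.12, that of the set is -0.26, and the 10 filled points of the lists are 6 lower and 4 higher genes.

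Among 21 tested genes of other chemokines and cytokines, 1 fell and 2 rose in edgeR (3.33% and 1.36% of all genes). With the replicate block 7 were called lower and 2 higher (12.5% and 11.8% of all genes). CXCL16, a chemokine made as a membrane protein, gave 2.38, 1.26 and 1.41 CPM in WT and 0.564, 0.224 and 0.185 in PARP3-/-, with no overlap. It fell from 1.69 ± 0.608 to 0.325 ± 0.208 CPM (SD, n = 3), with a log2 fold change of -2.43 (SE 0.45) and an edgeR adjusted p of 0.0303. TGFB1 and TGFB2, members of the transforming growth factor family that restrain inflammation in many settings, rose. TGFB1 went from 21.0 ± 0.458 to 30.6 ± 3.69 CPM (log2 fold change 0.55, SE 0.10, edgeR adjusted p 0.0318) and TGFB2 from 20.5 ± 2.49 to 32.2 ± 2.81 CPM (0.65, SE 0.12, adjusted p 0.0245). MIF, which with TGFB1 had the highest level per kilobase of this list, was at 28.1 ± 4.40 and 27.6 ± 5.92 CPM.

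Of 18 tested receptors, 0 were called in either direction by edgeR (4.70% of all genes). At an unadjusted p under 0.05, 3 were lower and 3 higher (9.03% and 7.23% of all genes). DESeq2 called 1 lower and 1 higher (3.84% and 2.09% of its genes). The replicate block called 5 lower and 4 higher (12.5% and 11.8% of all genes), and the median log2 fold change was -0.18. IL6ST, which encodes gp130, had 246, 181 and 197 CPM in WT and 191, 142 and 143 in PARP3-/-, with overlap between the genotypes. Its log2 fold change was -0.39 (SE 0.16) with an edgeR adjusted p of 0.293, and of 0.000241 with the replicate block. LTBR, the lymphotoxin β receptor, was at 98.6 ± 13.3 and 112 ± 6.17 CPM (SD, n = 3; edgeR adjusted p 0.524, and 0.0328 with the block).

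All 35 genes of the list of NF-kB subunits, kinases and inhibitors were tested and 0 were called by edgeR (4.70% of all genes). At an unadjusted p under 0.05, 2 were lower and 2 higher (again beside 9.03% and 7.23% of all genes). DESeq2 called 0 and 0 (3.84% and 2.09% of its genes), and the replicate block 2 lower and 5 higher (12.5% and 11.8% of all genes). The list had a median log2 fold change of 0.01. IRAK1, a kinase below the IL-1 receptor, was at 566 ± 54.4 and 511 ± 74.5 CPM (SD, n = 3; log2 fold change -0.15, edgeR adjusted p 0.711). TBK1, a kinase of innate immune signalling, was at 89.6 ± 8.59 and 107 ± 2.63 CPM (0.26, adjusted p 0.212, and 0.00681 with the block).

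Of 29 tested targets of NF-kB beyond the set, 2 fell and 1 rose in edgeR (3.33% and 1.36% of all genes), and the median was -0.01. With the replicate block 7 were called lower and 10 higher (12.5% and 11.8% of all genes). TNFAIP2, induced by tumour necrosis factor, gave 5.86, 6.27 and 5.78 CPM in WT and 1.73, 1.46 and 1.03 in PARP3-/-. The groups lay far apart, and the log2 fold change was -2.09 (SE 0.20) with an edgeR adjusted p of 0.00208. SAA1, an acute-phase protein, fell from 1.87 ± 0.712 to 0.564 ± 0.0382 CPM (SD, n = 3; log2 fold change -1.72, SE 0.31, edgeR adjusted p 0.0256). SAA1 has a near-identical neighbour, SAA2, so its count is uncertain. PDGFB, a growth factor chain, rose from 10.3 ± 1.17 to 22.1 ± 4.82 CPM (1.10, SE 0.17, edgeR adjusted p 0.0155). The members with the highest level per kilobase were CD44, the hyaluronan receptor, at 572 ± 33.5 and 480.3 ± 24.8 CPM (adjusted p 0.224, and 0.00721 with the block), and TNC, the matrix protein tenascin-C, at 832 ± 49.6 and 835 ± 18.6 CPM.

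Of 18 tested genes of the list of AP-1 and C/EBP factors, edgeR called 1 lower and 0 higher (3.33% and 1.36% of all genes). The list also holds transcription factors of other families, KLF6 and EGR1. The replicate block called 5 lower and 5 higher (12.5% and 11.8% of all genes). CEBPA, which encodes C/EBPα, gave 2.79, 2.17 and 2.63 CPM in WT and 0.564, 0.494 and 0.450 in PARP3-/-. It fell 5.04-fold, with a log2 fold change of -2.33 (SE 0.20) and an edgeR adjusted p of 0.00132. ATF4 and KLF6 had the highest levels per kilobase, and KLF6 was at 94.1 ± 4.54 and 113 ± 5.85 CPM (SD, n = 3; edgeR adjusted p 0.125, and 0.00177 with the block), ATF4 at 427 ± 144 and 400.5 ± 90.7 CPM.

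In the JAK-STAT3 list, 1 of 16 tested genes fell and 1 rose in edgeR (3.33% and 1.36% of all genes). The replicate block called 2 lower and 4 higher (12.5% and 11.8% of all genes). SOCS2, a feedback inhibitor of cytokine receptors, gave 34.2, 45.8 and 46.1 CPM in WT and 72.3, 113 and 107 in PARP3-/-. It rose 2.32-fold, with a log2 fold change of 1.22 (SE 0.20) and an edgeR adjusted p of 0.0174. STAT5A, a transcription factor below cytokine receptors, fell from 6.87 ± 0.940 to 3.41 ± 0.809 CPM (SD, n = 3; -1.02, SE 0.20, edgeR adjusted p 0.0375). JAK1, a kinase bound to gp130, was at 199 ± 2.44 and 214 ± 11.4 CPM, and PTPN11, the phosphatase SHP2, at 441 ± 7.31 and 453 ± 3.65 CPM.

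Short-lived cytokine mRNAs carry AU-rich elements that recruit decay factors. Of 18 tested genes of a list on this decay and its regulation, 0 were called in either direction by edgeR (4.70% of all genes). DESeq2 also called 0 (3.84% of its genes lower and 2.09% higher). At an unadjusted p under 0.05, 1 was higher (7.23% of all genes), and the block called 1 higher (11.8% of all genes). The most abundant per kilobase, CNOT1 of the deadenylase complex and the RNA-binding protein TIA1, were at 165 ± 5.01 and 169 ± 4.80 CPM and at 118 ± 3.88 and 125 ± 6.89 CPM (SD, n = 3).

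Among 13 tested genes of IL-1 processing, 1 fell and 0 rose in edgeR (3.33% and 1.36% of all genes). The replicate block called 3 lower and 3 higher (12.5% and 11.8% of all genes). CASP1, the protease that cleaves the IL-1β precursor, gave 24, 17 and 26 counts in WT and 3, 7 and 4 in PARP3-/-, with a log2 fold change of -2.16 (SE 0.35) and an edgeR adjusted p of 0.0169. PARP3-/- replicate 1 was thus at the limit of 3 counts. CAPN1 and CAPN2, calpains that can process the IL-1α precursor, were at 137 ± 6.02 and 165 ± 14.2 CPM and at 462 ± 55.3 and 557 ± 56.2 CPM (SD, n = 3), and neither was called by edgeR (adjusted p 0.188 and 0.359), while the replicate block called both higher (0.00288 and 0.00547).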

How the data were processed

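RNA from 3 WT and 3 PARP3-/- LN229 libraries was analysed, grouped by the genotype in the labels. The deposited table holds the authors' raw counts per Ensembl gene. Per the labels and the study's methods, these came from stranded, ribosomal RNA-depleted total RNA libraries (the labels also name polyA RNA), with cutadapt 1.10, Bowtie2 2.2.8, STAR 2.5.3a on hg38 and HTSeq 0.6.1p1 in union mode, which drops reads that overlap several genes. The authors' median transcript length per gene, a value in bases under no standard unit, served to scale levels. The authors' own normalized values (12 columns), fold changes and p-values from DESeq2 1.16.1 were not used.

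The 10 genes and all lists were chosen with earlier results of these data known. Counts were tested over all genes with edgeR 4.0.16 in R 4.3.3 (quasi-likelihood, TMM, filterByExpr with a minimum count of 10, Benjamini-Hochberg adjustment over 17144 genes), with genotype as the only term. CPM are counts scaled to the TMM-adjusted library size. Alternatives were DESeq2 1.42.0, median-of-ratios size factors, no filter, a mean count of at least 50, a replicate block, each library left out, and an adjusted p under 0.001 with a log2 fold change beyond 1. Each standard error is the size of the fold change over the square root of its F value. The procedure was tested on simulated counts, with changes only in well-counted genes, the same spread for all genes and no effect of the replicate number. Calls on genes with few counts were therefore not checked by it. The labels number the replicates, and deviations from the genotype means correlated between libraries of the same number (0.676, 0.517 and 0.242), against -0.628 to 0.410 between different numbers. The value of replicate 3 lay below the highest between different numbers, so a pairing is shown only in part. The main fit leaves it out, and the block, which takes the numbers as pairs, is given where it changes a call. Ratios of counts were compared by exact permutation of 3 against 3 libraries, and within pairs by exact sign flips. The text names every gene of the set, PARP3, from each list up to 4 called genes and the 2 with the highest level per kilobase, and the 10 genes most correlated with the average of the set. Any further gene in the text was picked with its values in view. Promoter bases came from RefSeq (GRCh38.p14), and shared stretches of 50 bases from exact matches between GENCODE 44 transcripts.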

Additional observations from a re-analysis of the deposited data

How the results depend on the processing

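The number of genes of the set called lower, 2 in edgeR, was 1 with median-of-ratios size factors or a mean count of at least 50, 3 with DESeq2, with no filter on low counts or with the replicate block, 0 at an adjusted p under 0.001 with a log2 fold change beyond 1, and 1 to 3 with a library left out. The number higher, 0, was 1 with the replicate block and 0 to 0 with a library left out. In the pathway lists, the 6 lower genes became 2 with a mean count of at least 50, 31 with the replicate block, 0 under the stricter threshold and 2 to 10 with a library left out. CXCL16, SAA1 and CASP1 had a mean count under 50 and were not tested in that fit. The 4 higher genes became 8 with DESeq2, 34 with the block, 0 under the stricter threshold and 0 to 4 with a library left out. Over all genes, the 571 lower became 871 with DESeq2, 331 with a mean count of at least 50, 2143 with the block, 76 under the stricter threshold and 281 to 606 with a library left out, and the 234 higher became 475, 2023 with the block, 6 and 49 to 259. The cause of these moves was not tested. For single genes, the direction turned in 5 of the comparisons, namely CXCL3 (0.0043), CCL2 (-0.026) and IL1A (0.16) without WT replicate 1, and NFKBIA without WT replicate 2 (0.054) and without WT replicate 3 (0.018). With a library left out, the log2 fold change ranged from -0.99 to 0.0043 for CXCL3, from -0.026 to 0.26 for CCL2, from -0.50 to 0.16 for IL1A and from -0.12 to 0.054 for NFKBIA. Over the alternatives for named genes, 48 lost the call and 5 gained it with the direction kept, and 166 kept both. The replicate block gained calls for CXCL1 and LIF and lost no call of the set. The lengths of the canonical transcripts and the sign flips of paired ratios were chosen after seeing the data. Depth limits CXCL2, IL6, IL1B and CASP1, which rest on at most 128 counts per library. It also limits CXCL16, with at most 87 counts per library, and SAA1 and CEBPA, which were at low CPM in both genotypes.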

Other observations

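FOS and EGR1 encode immediate-early transcription factors. FOS had 131, 173 and 620 counts in WT and 98, 201 and 348 in PARP3-/-, and EGR1 had 290, 269 and 1270 in WT and 196, 220 and 669 in PARP3-/-. Replicate 3 held the highest count of FOS and of EGR1 in both genotypes. FOS had a log2 fold change of -0.43 (SE 0.63) with an edgeR adjusted p of 0.846, and EGR1 of -0.64 (SE 0.71) with 0.783. These genes were picked after their values were seen, and the difference between replicates was not tested.

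CCL20, a chemokine for dendritic cells and lymphocytes, gave 57, 35 and 59 counts in WT and 19, 17 and 24 in PARP3-/-, with no overlap. Its log2 fold change was -1.23 (SE 0.33) with an edgeR adjusted p of 0.101, and of 0.00223 with the replicate block. IL24, a cytokine of the IL-10 family, had 155, 27 and 48 counts in WT and 111, 107 and 80 in PARP3-/-, so WT replicate 1 held the highest count of the 6 libraries. Both were picked after their values were seen.

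Of 9 tested glial markers, edgeR called 1 lower and 1 higher (3.33% and 1.36% of all genes). The replicate block called 5 lower and 1 higher (12.5% and 11.8% of all genes). S100B fell from 194 ± 44.3 to 93.1 ± 13.8 CPM (SD, n = 3; log2 fold change -1.06, edgeR adjusted p 0.0256), and SLC1A3, a glutamate transporter, rose from 8.02 ± 1.06 to 16.2 ± 0.671 CPM (1.01, edgeR adjusted p 0.00508). The further markers called lower with the block were FABP7 (-1.29), OLIG2 (-0.52), SOX2 (-0.32) and CD44 (-0.25). Of 9 fibroblast and pericyte markers in the table, 7 were tested, and edgeR called 1 lower and 1 higher (3.33% and 1.36% of all genes). The collagen gene COL1A2 was higher in PARP3-/- (1.31, edgeR adjusted p 0.0465) and DCN, which encodes decorin, lower (-1.05, edgeR adjusted p 0.00919). The sum of the 9 markers ranged from 64.5 to 86.8 CPM in WT and from 85.6 to 150.4 CPM in PARP3-/-. Lymphocyte markers summed to at most 0.146 CPM and endothelial markers to at most 2.44 CPM in any library. The part of these markers in the cytokine results was not tested.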
